A study of Mus musculus with 2 samples.

Results

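Fat3, Ahnak, Dst and Arhgap5 carried 115 of the 17755 listed C-to-U sites, in 4 of the 6929 genes with a site. Most of these sites lay more than 5 kb from the 3′ end of the annotated gene span. Rows of the list were taken by gene name. The 4 genes were chosen by 2 measured values, the number of sites per gene and the distance of the sites to the 3′ end of the gene, so both are given as descriptions and neither is tested. Editing levels, the spacing of sites and the genes of related families were not used in the choice. The working description of the genes speaks of giant exons, and the exon structure was not analysed here because the reference used gives gene spans and start windows only.

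The series holds 1 group of 2 libraries from the cortex of mice with the genotype APOBEC1-YTH, 10 weeks old when tamoxifen began. Tamoxifen was given at 20 mg/kg every 24 h for 5 days, and tissue was collected 7 days after the last dose. Nuclei were fixed in 50% ethanol, stained with an antibody to NeuN (product of the neuronal gene Rbfox3) and flow sorted. Both libraries carried the transgene and received tamoxifen. Libraries without the editor were not analysed here, whether the site caller used any is unknown, and the sources used here give neither the promoter that drives the transgene nor the number of animals behind a library. The authors combined the 2 libraries into 1 value per site, so every spread below is a spread across sites and no replicate error can be given. Read depth per site is unknown.

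N6-methyladenosine (m6A) is the most abundant internal modification of messenger RNA and is typically enriched near stop codons and in long internal exons. APOBEC1-YTH joins a cytidine deaminase to the YTH domain, which binds m6A, and it converts cytidines close to the modified adenosine to uridines. A listed site is read as such a cytidine, and its editing level is the share of reads that carry the conversion. Whether a given site depends on the editor or on m6A was not tested. Fat3 encodes a giant atypical cadherin of the cell surface that shapes the dendrites and positions of retinal neurons. Ahnak encodes a giant scaffold protein made mostly of repeated units, found beneath the plasma membrane. Dst encodes dystonin, a plakin that links actin filaments, intermediate filaments and microtubules and whose loss causes a sensory neuropathy in mice. Arhgap5 encodes p190-B, a GTPase-activating protein that regulates the actin cytoskeleton.

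The label of the cells was checked against marker genes by their listed sites, since the list gives no expression. Of all RefSeq protein-coding genes, 28.2% had a site. Of 12 neuronal markers 6 had a site, with 19 sites in all, and Rbfox3, Tubb3, Stmn2, Gad1, Gad2 and Slc32a1 had 0 sites. Of 40 markers of astrocytes, the oligodendrocyte lineage, microglia and blood vessels 30 had a site. These were 7 of 10 for astrocytes, 9 of 10 for the oligodendrocyte lineage, 5 of 10 for microglia and 9 of 10 for blood vessels. Astrocyte markers had 182 sites, those of the oligodendrocyte lineage 51, of microglia 22 and of blood vessels 61, all more than the neuronal markers. The median level went the other way and was highest at sites of the neuronal markers, 7.69%. It was 1.79% for astrocytes, 1.59% for the oligodendrocyte lineage, 2.155% for microglia and 2.33% for blood vessels. The neuronal median rests on 19 sites and gene medians varied, with 12.4% in Celf4 (4 sites), 2.56% in Map2 (5 sites) and 1.82% in Snap25 (1 site). Some other markers with few sites were high too, such as Pdgfra at 14.0% and Tmem119 at 8.055%, with 2 sites each. With depth unknown, these levels do not settle the cell type. Which cells the RNA of the 4 genes came from was not tested.

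Because no site of the 4 genes fell inside a sequence at hand, the bases around the edited cytidines cannot be shown. The sequences below are the transcript starts that the reference lists for these genes. They are RefSeq windows of GRCm38.p6, read along the transcribed strand, with 12 bases before the annotated start in lower case and 18 bases from it on in capitals. Dst has 2 such starts, at positions 34011595 and 34160260 of chromosome 1. The starts of Fat3, Dst and Arhgap5 lie inside the gene spans, which begin further 5′, and all distances from a 5′ end given further on are from the end of the span.
Fat3: tcctccgccgccAACCCGCAGCAGTGGCGG
Ahnak: cgcacgggggccCGGCCACTTGGAGCAGCT
Dst, first start: cggagatgccgcAGAAGCGCGGCGCATCCC
Dst, second start: gccctgcccctcCTTTTAGACTGCCTTTCA
Arhgap5: tttcccctttctAGGAAGATGATCCATATG

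The Arhgap5 start, at position 52516077 of chromosome 12, is shown in full because its sites begin 301 nt after it, the shortest such distance among these starts. This annotated start lies inside the span, and whether transcription begins there in these nuclei was not tested. The window chr12:52515827-52516126 on the plus strand holds 250 bases before the start in lower case and 50 bases from the start on in capitals.
Arhgap5: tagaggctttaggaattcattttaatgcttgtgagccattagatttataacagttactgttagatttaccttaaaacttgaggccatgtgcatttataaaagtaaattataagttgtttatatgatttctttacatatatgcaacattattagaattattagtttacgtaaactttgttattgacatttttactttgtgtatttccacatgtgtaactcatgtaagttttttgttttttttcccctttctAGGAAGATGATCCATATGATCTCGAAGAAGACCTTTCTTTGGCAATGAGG
G and C made up 29.0% of this window, against a median of 52.7% over the 32851 windows of the table and 71.3% and 67.3% in those of Fat3 and Ahnak. The letters GGACT, a frequent form of the m6A consensus, or their reverse complement AGTCC, were in 45.5% of all windows. They occurred in neither strand of the Arhgap5 window, the Fat3 window or the second Dst window. The Ahnak window and the first Dst window held GGACT once each, in Ahnak after the start and in Dst before it. Most of each window lies before the start, outside RNA that begins there, so these counts do not describe m6A sites. The first site lay 124.3 kb after the start of Fat3 and 12.4 kb after that of Ahnak. From the 5′ end of the span, the first site of Arhgap5 lay at 12.6 kb, close to that of Ahnak. Dst had 4 sites between its 2 starts and 25 after the second, the nearest of them 2.90 kb after it.

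Most sites of each gene lay more than 5 kb from the 3′ end of its span. In Fat3 (chromosome 9, 15910189 to 16502681, minus strand, 592.5 kb) this held for 30 of 32 sites (93.8%, exact Clopper-Pearson 95% interval 79.2% to 99.2%, for counting error only). In Ahnak (chromosome 19, 8989284 to 9076935, plus strand, 87.7 kb) it held for 26 of 26 (exact interval 86.8% to 100%). In Arhgap5 (chromosome 12, 52503763 to 52571978, plus strand, 68.2 kb) it held for 25 of 28 (89.3%, 71.8% to 97.7%), and in Dst (chromosome 1, 33907888 to 34308662, plus strand, 400.8 kb) for 24 of 29 (82.8%, 64.2% to 94.2%). Of all listed sites inside a matched gene span, 50.3% lay this far from the end. That share is given beside the members only as background, since the distance chose them. A span covers all RefSeq transcripts of a gene, so the distance to the end of any 1 transcript can be shorter. In Ahnak, with 10 such transcripts, the last 58.4 kb of the span held no site. Which transcript its sites belong to was not determined, so its distances hold for the span only.

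The median distance of the sites to the 3′ end of the span was 465.6 kb in Fat3, 106.1 kb in Dst, 67.1 kb in Ahnak and 54.4 kb in Arhgap5. The sites thus lay deep in the span in all 4 genes, and the maps of sites along the genes show that they did so in different ways. Fat3 and Arhgap5 each had 1 crowded stretch in the 5′ part of the gene. The other 3 sites of Arhgap5 were in the last 5 kb, and of the other 10 of Fat3 only 2 were, while 8 lay between. Ahnak had 1 broad field of sites and none elsewhere. Dst had sites strung along 172.9 kb, from 227.5 kb after the 5′ end of the span to 0.38 kb before the 3′ end.

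**Figure D1:**
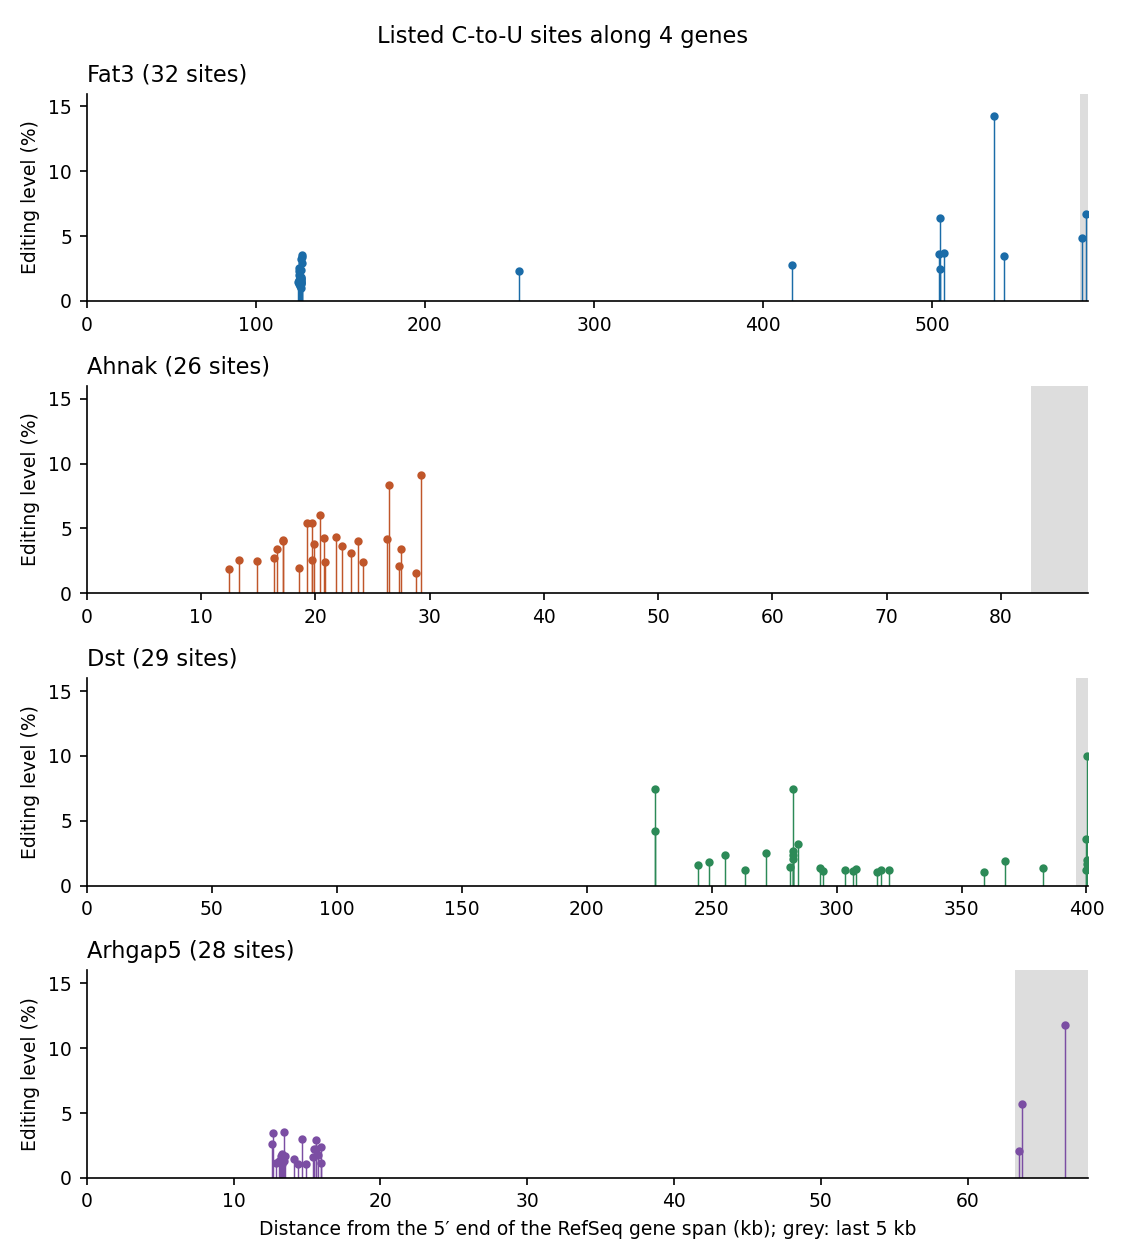
Editing level in percent (vertical axis) of each listed site against its distance from the 5′ end of the RefSeq span in kb (horizontal axis), 1 panel a gene, with the last 5 kb in grey. The 32 sites of Fat3 and the 28 of Arhgap5 are mostly in 1 narrow stretch, the 26 of Ahnak lie between 12.4 and 29.2 kb, and the 29 of Dst are strung over 172.9 kb.

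In Fat3, 22 of the 32 sites were packed into 2645 nt (chr9:16375118-16377762), 0.446% of the span. Neighbouring sites in this stretch were a median of 43 nt apart. A bunch was defined as at least 3 sites with neighbouring gaps of at most 500 nt, and by this measure the stretch divided into 3 bunches separated by gaps of 598 and 594 nt. In 5′ to 3′ order these bunches held 8 sites over 1040 nt, 11 sites over 402 nt and 3 sites over 13 nt. The bunch of 11 had 27.4 sites per kb. The bunch of 3 had levels of 2.93%, 3.39% and 3.57%, at positions 16375130, 16375126 and 16375118.

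Levels in this stretch were low and even. The 8 sites of the 5′ bunch had levels from 1.16% to 2.56% with a median of 1.56%. The 11 sites of the middle bunch ran from 1.0% to 3.26% with a median of 1.64%. The 3 sites at the 3′ edge were all higher than every other site of the stretch except the one of 3.26%. Over all 22 sites the median was 1.66% (range 1.0% to 3.57%, SD across sites 0.76).

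The 10 remaining sites of Fat3 lay 3′ of the crowded stretch and had higher levels. These were, from 5′ to 3′, 2.30%, 2.78%, 3.64%, 6.38%, 2.47%, 3.70%, 14.3%, 3.45%, 4.88% and 6.67%. All 10 were above the median of the stretch, while the ranges of the 2 sets overlapped. Their median was 3.67% (SD across sites 3.58). The first of them lay 128337 nt after the stretch and the second 161470 nt further on. A bunch of 3 followed within 492 nt (chr9:15997851-15998342). The site at 14.3%, the highest of all 115, was at position 15965988, 55.8 kb from the 3′ end. The last pair, at 4.88% and 6.67%, lay 4.03 and 1.58 kb from the end and were the only sites of Fat3 in the last 5 kb.

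Arhgap5 also had a crowded stretch. Of its 28 sites, 25 lay in 3370 nt (chr12:52516378-52519747), 4.94% of the span, a median of 99.5 nt apart. The stretch held 2 bunches with a gap of 586 nt between them. The 5′ bunch had 14 sites over 917 nt and the 3′ bunch 11 sites over 1868 nt, 15.3 and 5.89 sites per kb. The closest trio was at positions 52517038, 52517046 and 52517049, with levels of 1.20%, 1.23% and 1.82%.

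Levels in the Arhgap5 stretch ran from 1.03% to 3.54%, with a median of 1.59% (SD across sites 0.77). The 5′ bunch had a median of 1.33% and the 3′ bunch one of 1.78%, and their ranges overlapped almost wholly. In the 5′ bunch, 3 sites stood above the rest. They were the first 2, at 2.61% and 3.45%, and the one at position 52517200, at 3.54%. The other 11 sites of that bunch were between 1.09% and 1.82%.

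The 3 sites of Arhgap5 outside the stretch were separated from it by 47.5 kb and all lay in the last 5 kb. Their levels were 2.08%, 5.71% and 11.8%, at positions 52567234, 52567463 and 52570414. The level was thus higher at each step towards the 3′ end, and 2 of the 3 were above every site of the stretch. Depth along Fat3 and Arhgap5 is unknown, and its part in these differences was not tested. With sites under 2% left out, the stretch minus the other sites moved from -4.12 to -1.16 percentage points in Arhgap5, over 11 sites, and from -2.02 to -0.93 in Fat3, over 18 sites.

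**Figure D2:**
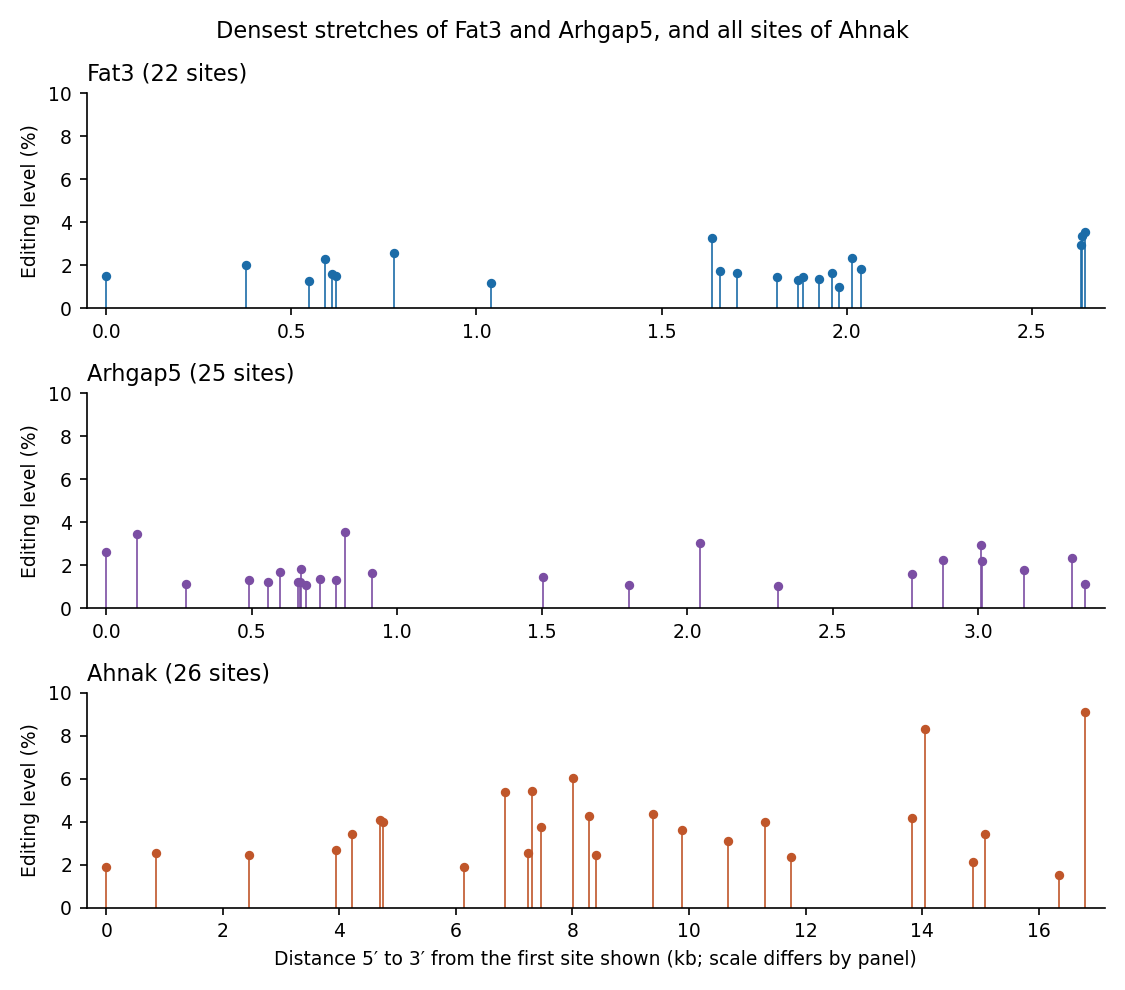
Editing level in percent (vertical axis) against the distance in kb from the first site shown, 5′ to 3′ (horizontal axis, with a different scale in each panel), for the crowded stretches of Fat3 (22 sites) and Arhgap5 (25 sites) and for all 26 sites of Ahnak. Sites of Fat3 and Arhgap5 fall in dense groups at levels up to 3.57% and 3.54%, while those of Ahnak are spaced more evenly and reach 9.09%.

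Ahnak had a field of sites without a dense core. Its 26 sites covered 16.8 kb, from position 9001733 to 9018531, at 1.55 sites per kb. Gaps between neighbours ran from 50 to 2085 nt with a median of 491 nt, and 0 of the 25 gaps were over 5 kb. Only 4 of 26 sites had a neighbour within 100 nt. There were 3 bunches, of 4, 4 and 3 sites, over 817, 616 and 407 nt, and 15 sites belonged to none.

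Ahnak had the highest median level of the 4 genes. It was 3.54% (quartiles 2.48% and 4.24%, range 1.54% to 9.09%, SD across sites 1.85). Only 3 sites were under 2%, at 1.90%, 1.92% and 1.54%. The highest were 8.33% at position 9015778 and 9.09% at position 9018531, the last site of the gene. The site next to that one, 442 nt 5′ of it, had the lowest level, 1.54%. The 13 sites in the 5′ part of the field had a median of 3.45% and the 13 in the 3′ part 3.64%, and these ranges overlapped (1.90% to 6.06% and 1.54% to 9.09%).

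Dst had the widest spacing in the genome by the median gap between its sites, which was 3302 nt, and 12 of 28 gaps exceeded 5 kb. All gaps given here are distances along the genome, so any intron between sites counts in them. How far apart the sites lie along the spliced RNA is unknown. It had 2 bunches. The first held 4 sites over 154 nt (chr1:34190385-34190538), with levels of 7.41%, 2.33%, 2.06% and 2.67% from 5′ to 3′. The second held 5 sites over 743 nt (chr1:34307540-34308282) at the 3′ end of the gene, with levels of 1.20%, 3.57%, 2.00%, 1.63% and 10.0%. The lone pair at positions 34135374 and 34135390, 16 nt apart and 5′ of the second annotated start, had levels of 7.46% and 4.17%.

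Between the 2 bunches of Dst the levels were close to the lowest value in the list, 1.0%. The 12 sites there, over 97.9 kb, had a median of 1.21%, and 11 of the 12 were under 2%. The exception was the first of them, at 3.17%. The 8 sites 5′ of the first bunch had a median of 2.08% and a range of 1.22% to 7.46%, with 4 under 2%. Since values stop at 1.0%, sites edited less than that would not appear, and how many such sites Dst has is unknown.

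**Figure D3:**
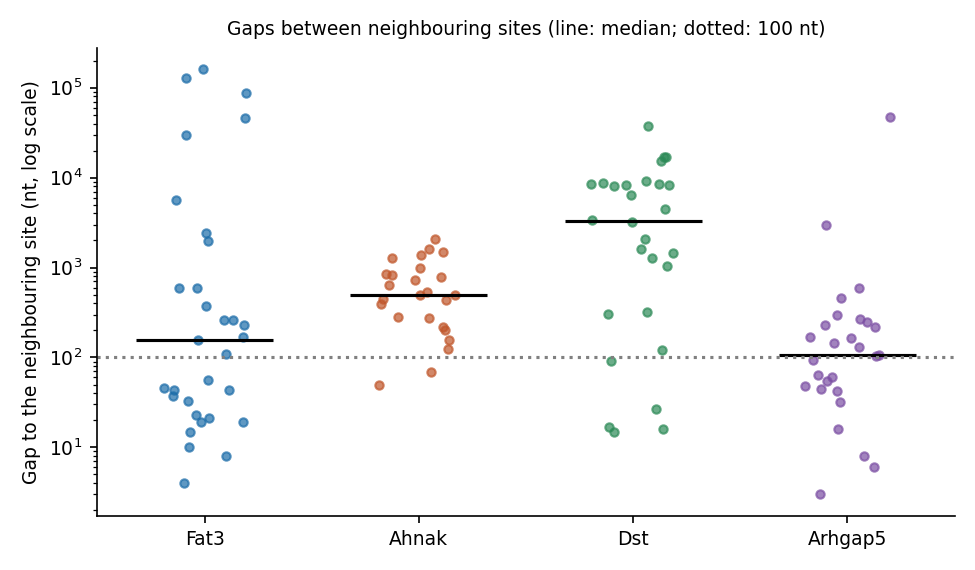
Gap in nt between each site and its neighbour (log axis) for the 4 genes, with the median as a line and 100 nt as a dotted line. Fat3 spans the widest range, from 4 to 161470 nt, and the gaps of Ahnak stay between 50 and 2085 nt.

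How close sites lay to each other was measured by the share with a near neighbour. A neighbour of the same gene within 100 nt was present for 18 of 32 sites of Fat3 (56.2%, exact 95% interval 37.7% to 73.6%). The count was 15 of 28 in Arhgap5 (53.6%, 33.9% to 72.5%), 8 of 29 in Dst (27.6%, 12.7% to 47.2%) and 4 of 26 in Ahnak (15.4%, 4.36% to 34.9%). Over all sites the share was 22.8%, and in the other 22 genes with at least 20 sites it was 69.8%. Fat3, Arhgap5 and Dst lay between these shares and Ahnak below both. A gene with many sites has close neighbours more readily, and the median over all genes was 2 sites, so the 22.8% is background only. Sites of a gene share their RNA, and a site and its near neighbour are counted together. The intervals take sites as independent, so they do not cover even counting error in full, and no test was made. With sites under 2% left out, the shares were 16.7% in Fat3, 18.2% in Arhgap5, 58.3% in Dst and 17.4% in Ahnak, which turns the order of Dst against Fat3 and Arhgap5.

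Editing levels were compared with the rest of the list as medians, without a test, since there is no replicate error to set them against. Medians were 2.31% in Fat3, 1.63% in Dst, 1.66% in Arhgap5 and 3.54% in Ahnak, against 3.64% over all 17755 sites (quartiles 2.01% and 6.90%). With sites under 2% left out, the medians of Dst and Arhgap5 were 2.92% and 2.94%. The other 22 genes with at least 20 sites had gene medians from 1.43% to 4.44%, and the middle of these was 2.07%. All 4 genes thus lay inside the range of genes with similar numbers of sites. Counted from the lowest of these 26 gene medians, Dst ranked 5, Arhgap5 6, Fat3 16 and Ahnak 22.

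Levels under 2% made up 24.6% of all listed sites and 43.8% of the sites in the other 22 genes with at least 20 sites. They made up 17 of 28 sites in Arhgap5 (60.7%), 17 of 29 in Dst (58.6%), 14 of 32 in Fat3 (43.8%) and 3 of 26 in Ahnak (11.5%). The 14 low sites of Fat3 were all in its crowded stretch. Levels of 10% or more were found at 3 of the 115 sites (2.61%), 1 each in Fat3, Dst and Arhgap5, against 14.9% of all sites.

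**Figure D4:**
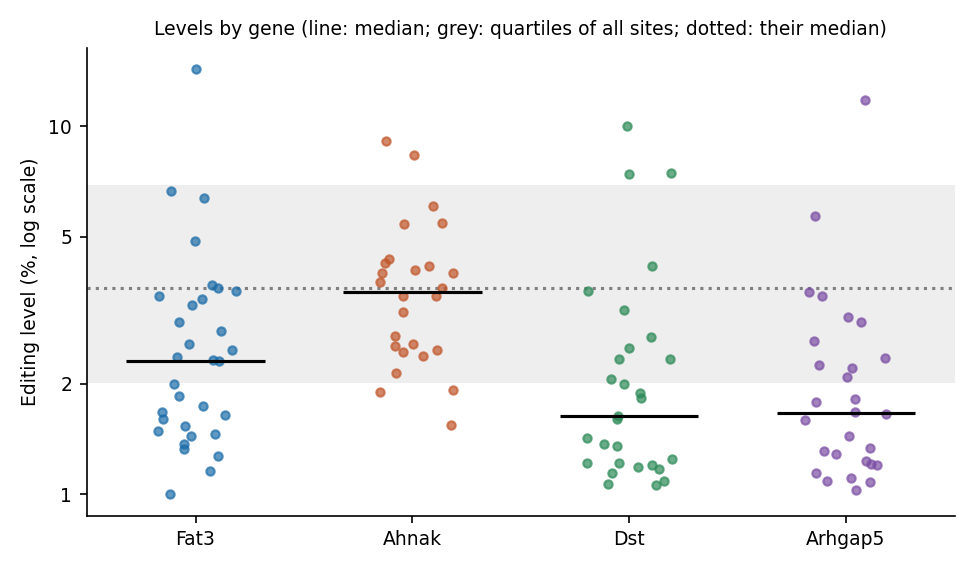
Editing level in percent (log axis) of each site in the 4 genes, with the gene median as a black line, and the quartiles (grey band) and median (dotted line) of all 17755 sites. Sites of Dst and Arhgap5 gather between 1% and 2%, and Ahnak is centred at 3.54%, near the median of the list.

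The 4 genes were not alone in having many sites far from the end. Of 26 genes with at least 20 sites, 9 (34.6%) had over 50% of them more than 5 kb from the 3′ end. Besides the 4 these were Ptprz1, a receptor phosphatase of glial precursors (19 of 20), Xist, the RNA of X inactivation (19 of 23), and Lrrc58 (27 of 33). The last 2 were Fryl, with 16 of 23, and the transcriptional repressor gene Zbtb20, with 20 of 33 and 12 sites outside its span. Just under the limit were the ankyrin gene Ank2 with 13 of 27 (48.1%) and the axonal adhesion gene Nfasc with 9 of 20 (45.0%). Median gaps in the other 22 genes ran from 25 to 2372 nt around a middle value of 83 nt. Those of the 4 genes, 107 nt in Arhgap5 to 3302 nt in Dst, were all above that middle value. So were those of Lrrc58 (131.5 nt), Ptprz1 (263 nt), Xist (342 nt), Zbtb20 (529.5 nt) and Fryl (2372 nt). The lowest, 25 nt, was in Slc1a3, with 0 of 23 sites that far from the end.

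**Figure D5:**
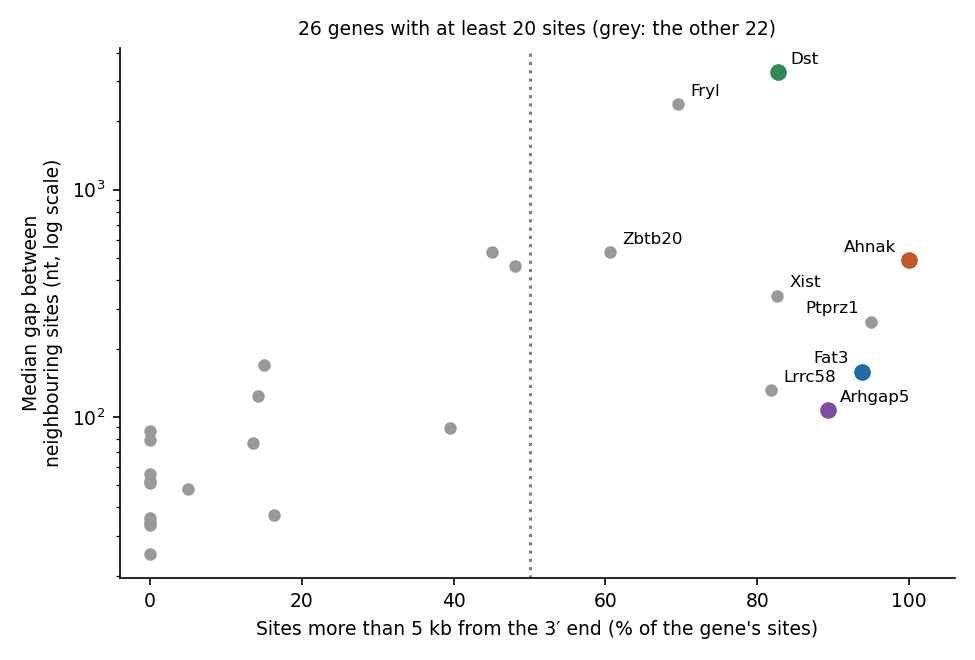
Median gap between neighbouring sites in nt (log axis) against the share of a gene's sites more than 5 kb from its 3′ end in percent, for the 26 genes with at least 20 sites. The 4 genes (coloured) are at 82.8% to 100%, and Dst has the widest median gap, 3302 nt.

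Likeness was measured by the spacing of sites in the genome, introns included. Among 86 other genes with at least 10 sites of which over 50% lay more than 5 kb from the end, the 5 nearest to the middle of the 4 median gaps (324 nt) were named. They were Bmpr2, a receptor for bone morphogenetic proteins (15 sites, median gap 317 nt, median level 2.94%), and the histone methyltransferase gene Ash1l (14 sites, 315 nt, 1.91%). The others were the protocadherin gene Pcdh9 (12 sites, 339 nt, 1.92%), Xist (23 sites, 342 nt, 1.75%) and the coactivator gene Ncoa6 (10 sites, 294 nt, 2.71%).

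Relatives of Fat3 carried sites in 6 of 9 cases, where 28.2% of all RefSeq protein-coding genes had a site. The list held Fat, Dachsous and Celsr cadherins and Fjx1, whose product is related to a kinase that acts on such cadherins, and Fat2, Dchs2 and Celsr3 had 0 sites. Fat1 had 19 sites with a median level of 2.78%, 12 of them more than 5 kb from the 3′ end, with a median gap of 446 nt. Fat4 had 10 sites, 8 of them that far from the end, at a median level of 8.11% and a median gap of 5836 nt. Celsr2, a planar polarity cadherin, had 10 sites at 4.02%, 5 of them that far from the end. Fjx1 had 12 sites at 1.70%, all in the last 5 kb. None of these 4 had as many sites as Fat3, but Fat3 was chosen partly by its number of sites, so this is no result about the family.

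Relatives of Dst in the plakin family had sites in 3 of 6 cases, beside the 28.2% of all protein-coding genes. Macf1, the closest relative, had 9 sites at a median level of 1.27% (range 1.03% to 5.05%), 8 of them more than 5 kb from the end and a median of 11149 nt apart. Of these 9 sites 4 had a neighbour within 100 nt. Plec had 3 sites at 2.33%, all far from the end, and Evpl 1 site at 12.5%, near it. The plakin genes Dsp, Ppl and Eppk1 had 0 sites. Of 6 genes that encode relatives or binding partners of Ahnak, 1 had a site, a share near the 28.2% of all protein-coding genes given the small number. It was Anxa2, which encodes annexin A2, with a site at 14.3%. Its relatives Ahnak2 and Prx and its partners S100a10, Dysf and Cacnb2 had 0.

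Among 28 further genes known for a very long coding exon, 25 had a site, against 28.2% of all protein-coding genes, and Brca2, Mki67 and Ttn had 0. Their 188 sites lay more than 5 kb from the end in 147 cases (78.2%), against 50.3% of all sites. The leading genes were Ank2, the microtubule-associated protein gene Map1b (18 sites, 8 far from the end, 5.56%), the active zone gene Pclo (14 sites, all 14 far, 3.06%) and Ash1l (13 of 14 far). This list was chosen with earlier results of these data known, so both shares are descriptions. The parts of gene length, expression and exon structure in them were not tested.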

How the data were processed

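C-to-U sites were measured in RNA of NeuN-stained cortical nuclei, 2 libraries in 1 group. STAR 2.7.5 and the build mm10 are named in the submitters' processing notes, and the series' design text names Bullseye as the site caller. The sources used here state neither its settings and control nor the way the libraries were joined. The authors deposited 1 fraction per site, printed here in percent, without coverage. The list starts at 1.0%. Positions are the third column: 160 of 160 sites that fell in a RefSeq start window of their strand had a C there.

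Genes were matched by symbol to RefSeq spans of GRCm38.p6 (mm10). All 4 genes matched. Gaps, bunches and distances were taken in genome coordinates, introns included. They were computed with Python 3.11.15, pandas 2.3.3 and numpy 2.4.6, and intervals with scipy 1.17.1. The routines were tested on simulated data with known bunches and neighbours, and these came back as made in 200 of 200 cases. Starts are the RefSeq start windows (250 bases before, 50 after).

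The genes, lists and rules were chosen with earlier results of these data known. Named beside the 4 genes were up to 4 genes of each family list with the most sites, those with at least 20 sites mostly far from the end, and 5 of like spacing. The list of genes related to Arhgap5 is not reported here. The split of levels by stretch, by bunch and along a gene was chosen after the table was seen. Alternatives changed the minimum level, the distances and the bunch gap. The planned exon and consensus analysis needs a genome and was not run.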

Additional observations from a re-analysis of the deposited data

How the results depend on the processing

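Of 60 recomputed values of the 4 genes, 43 stayed within their limits (1.5 times for counts, the exact interval for shares, the SD across sites for levels), 16 moved further and 1 reversed. The shares of sites far from the end stayed within these limits at 2 and 10 kb and at a minimum level of 2%. This says little, since the distance chose the 4 genes and few of their sites lay near these cuts. Ahnak had no site in the last 58.4 kb and Dst none between 1.12 and 18.2 kb from the end, so their shares could not change with the distance. The limit for gene medians, the SD of single sites, is wide and says little about their stability: at 2% they went from 1.63% to 2.92% in Dst, from 1.66% to 2.94% in Arhgap5, from 2.31% to 3.33% in Fat3 and from 3.54% to 3.77% in Ahnak. A minimum level of 2% left 18 sites in Fat3, 12 in Dst and 11 in Arhgap5, and one of 5% left 3 in Fat3, 5 in Ahnak, 3 in Dst and 2 in Arhgap5. At 2%, 16.7% of Fat3 sites, 58.3% of Dst sites and 18.2% of Arhgap5 sites had a neighbour within 100 nt. The shares in Fat3 and Arhgap5 were thus much lower without the sites under 2%. Leaving out many sites of a crowded stretch can lower such a share at any level, and removal without regard to level was not tested. With a distance of 200 nt the share in Arhgap5 was 75%. With bunch gaps of up to 1000 nt Fat3 had 2 bunches and Arhgap5 1, with gaps of up to 250 nt Ahnak had 1, and at 2% Arhgap5 had 1. The difference in median level between the longest stretch (gaps of up to 1000 nt) and the other sites moved from -4.12 to -1.16 percentage points at 2% in Arhgap5 and from -2.02 to -0.93 in Fat3, and reversed from 0.49 to -0.87 in Dst, where fewer sites were left. This comparison and its alternative were chosen after the data had been seen. Leaving out 1 library was not run, since the table has no values per library, and the share of sites in the longest exon was not run without an exon annotation. Depth per site is unknown and limits every level.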

Other observations

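Positions were also sorted by their remainder on division by 3, which in an unbroken coding exon would follow the codon position. In the crowded stretch of Arhgap5 the remainders 0, 1 and 2 held 7, 14 and 4 sites, in that of Fat3 7, 7 and 8, and over all sites of Ahnak 13, 7 and 6. Whether these stretches are single exons was not determined, and no test was made.

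The 1 site of Anxa2 (14.3%) and the 1 site of Evpl (12.5%) had levels above every site of Ahnak and Dst, respectively. The highest sites of Fat1 and Fat4 reached 20% and 25%, above every site of Fat3.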
